A study of Mus musculus with 4 samples.

Results

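The genes described here are the core of insulin signalling in inguinal white adipose tissue (ingWAT): the receptor *Insr*, its adaptor *Grb10*, the receptor substrates *Irs1* and *Irs2*, the PI3-kinase subunits *Pik3r1* and *Pik3ca*, the kinases *Akt1* and *Akt2*, and the Akt substrates *Foxo1* and *Tbc1d4*. The 10 genes were taken by their symbols from a table of 19030 genes, each symbol had 1 row, and all 10 were among the 12658 genes with a mean of at least 1 FPKM (fragments per kilobase of transcript, scaled to the reads mapped in each library) over the 4 libraries. RNA-seq libraries came from ingWAT of C57BL/6 mice labelled as 3 months old and housed at 4°C, 2 libraries per genotype. The study's methods describe cold challenges of male mice that passed through a milder cold first. Control mice (Ctrl) were Oct3 fl/fl littermates with no Cre, and conditional knockout mice (cKO) carried the same floxed alleles with a Cre driven by the *Adiponectin* promoter, so that *Slc22a3*, the gene of the transporter Oct3, was targeted in adipocytes while other cells of the tissue kept it. How many mice gave each library was not stated, and the p-values below measure only the spread between these libraries.

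Insulin binding switches on the receptor's tyrosine kinase, which phosphorylates the Irs proteins. These dock the regulatory subunit of class IA PI3-kinase, whose catalytic subunit makes the membrane lipid that recruits and activates Akt. In adipocytes Akt phosphorylates Tbc1d4, which lets vesicles carrying the glucose transporter Glut4 reach the cell surface, and Foxo1, which then leaves the nucleus. Much of this runs through protein phosphorylation and position in the cell, which transcript levels do not measure.

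*Slc22a3* stood at 16.95 and 17.68 FPKM in the Ctrl libraries and at 9.07 and 9.50 FPKM in the cKO libraries, so that its mean fell by 46.4% (adjusted p = 0.000439, limma with Benjamini-Hochberg adjustment over all genes tested, as throughout). Of the marker lists, that of skeletal muscle had the lowest median log2 fold change, at -6.50: all 11 markers tested were called lower in cKO, and the 13 listed summed to 2510 and 1687 FPKM in the Ctrl libraries against 11.9 and 9.34 in the cKO libraries. The summed markers of thermogenic adipocytes were 1516 and 1792 against 4778 and 4038 FPKM, with 7 of 7 called higher, and those of mature adipocytes 29993 and 28607 against 22967 and 23051, with 4 of 8 called lower. Among the other lists, 5 of 6 B cell and 5 of 6 T cell markers were called higher, and 5 of 6 fibroblast progenitor, 3 of 5 endothelial and 2 of 4 erythroid markers lower. Macrophage and Schwann cell markers were mixed, with 1 called higher and 3 lower of 7 and of 4, 1 of 4 smooth muscle markers was called higher, and the epithelial list summed to 0.65 FPKM or less in every library with no marker tested. Over all genes tested, 12.0% were called higher and 13.8% lower. In whole tissue, fewer cells of a type and less RNA per cell cannot be told apart.

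**Figure D1:**
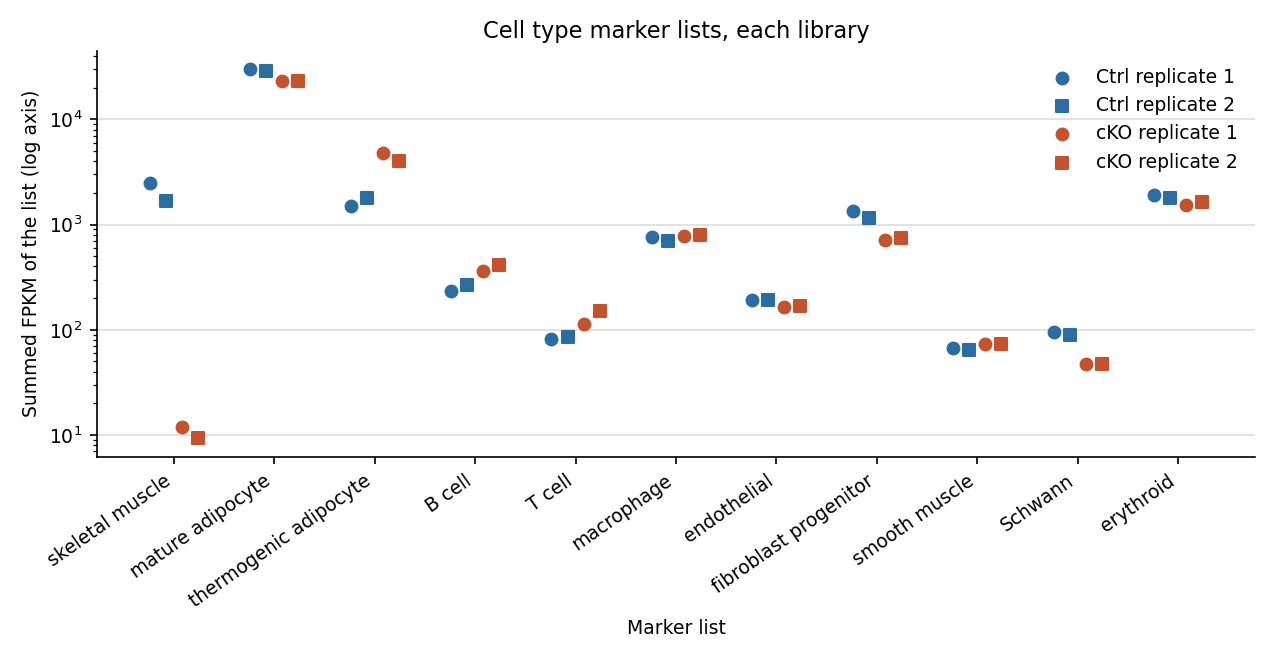
Summed FPKM of each cell type marker list (log axis) in the 2 Ctrl and 2 cKO libraries, 1 point per library. The skeletal muscle sum fell from 2510 and 1687 FPKM in Ctrl to 11.9 and 9.34 FPKM in cKO, the widest gap of the lists shown.

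Of the 10 insulin signalling genes, 3 were called lower in cKO at an adjusted p under 0.05, *Pik3r1*, *Grb10* and *Irs1*, and 0 were called higher. At an unadjusted p under 0.05, 4 were lower, with *Insr* added, and 0 higher, beside 2551 and 2322 of the 12658 genes tested. Over all genes tested 25.8% were called in either direction, 13.8% lower and 12.0% higher. Counted in either direction, 3 of 10 is close to the share of the whole table and is not in itself a result about these genes. Counted as lower only, 30.0% stands beside 13.8%, a gap that with 10 genes was not tested. The genotypes did not overlap for 4 genes, all lower in cKO, where 34.6% of all genes did not overlap with cKO lower and 31.9% with cKO higher. The median difference over the 10 genes was -0.06 on the log2(FPKM + 1) scale, beside -0.01 over all genes tested. This scale is used for every log2 fold change below and understates the change of genes with few FPKM.

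**Figure D2:**
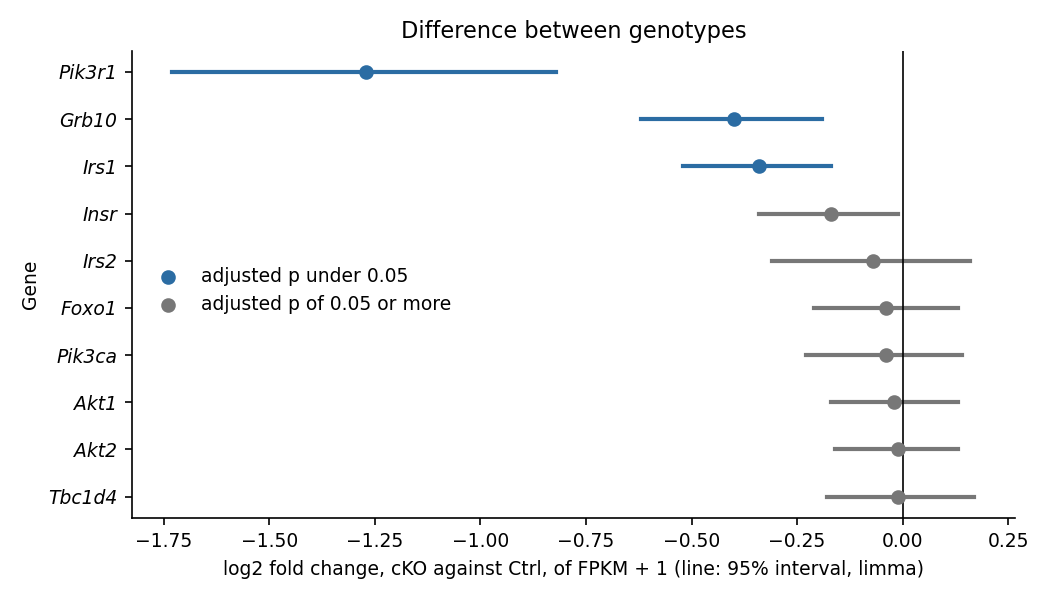
Log2 fold change of FPKM + 1 in cKO against Ctrl (x axis) for the 10 insulin signalling genes, with 95% intervals from limma not adjusted for the number of genes, 2 libraries per genotype. *Pik3r1* at -1.27 stands apart from the other 9 genes, which lie between -0.40 and -0.01.

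FPKM are scaled to transcript length, so that levels may be set side by side. *Akt2* was the most abundant of the 10 transcripts in every library, with a mean of 142 FPKM over the 4 libraries, above 95.8% of the genes tested. In Ctrl the next was *Pik3r1*, at 57.57 FPKM or more, followed by *Akt1* at 54.39 FPKM or less. In cKO that order was turned, with *Pik3r1* at 31.37 FPKM or less and *Akt1* at 50.15 FPKM or more. *Foxo1* followed at a mean of 18.3 FPKM, then *Tbc1d4* at 12.6 and *Insr* at 11.8, which overlapped in Ctrl. *Pik3ca* at 7.91 and *Grb10* at 7.38 overlapped in Ctrl and not in cKO, where *Grb10* was lower. *Irs1* had a mean of 6.51 FPKM and *Irs2* was the lowest in every library, with a mean of 2.88 FPKM, above 17.6% of the genes tested.

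**Figure D3:**
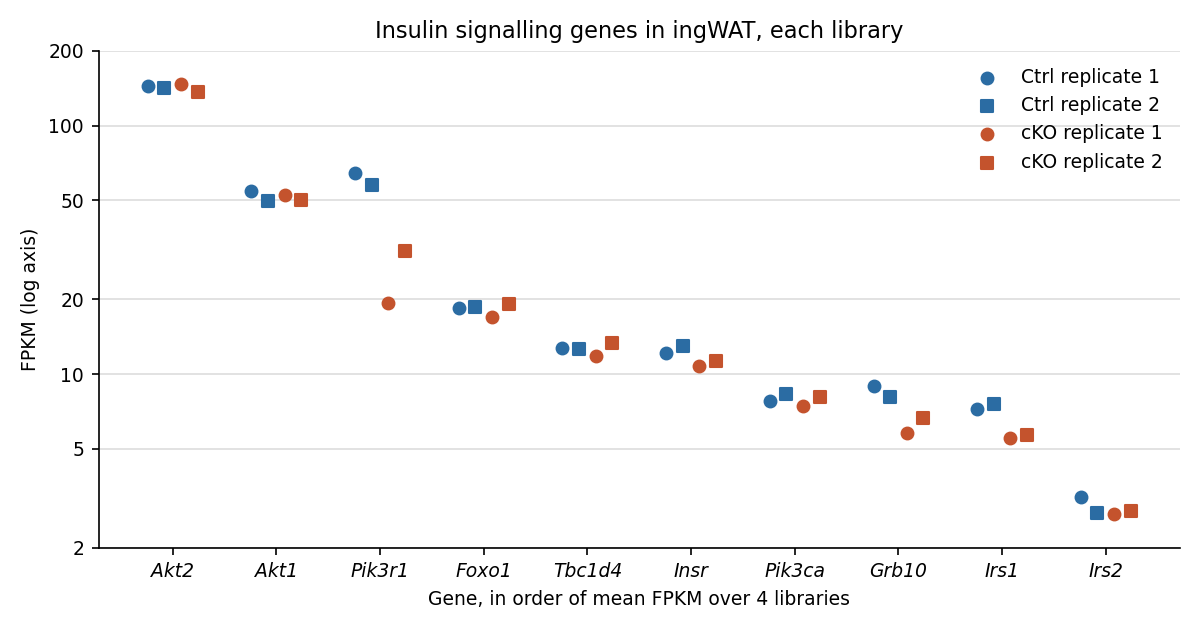
FPKM (log axis) of the 10 insulin signalling genes in each of the 2 Ctrl and 2 cKO libraries, with the genes in order of their mean over the 4 libraries. *Pik3r1* passes from above *Akt1* in Ctrl to below it in cKO, and *Akt2*, between 136.79 and 147.18 FPKM, lies above the other 9 in each library.

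*Insr* (gene 16337, chr8:3150922-3279649, here and below in the mouse build GRCm38.p6) encodes the insulin receptor, the tyrosine kinase at the head of the pathway. It measured 12.18 and 12.94 FPKM in Ctrl and 10.76 and 11.27 FPKM in cKO. The genotypes did not overlap, yet the difference was not called, with a log2 fold change of -0.17 (SE 0.0686, 95% interval -0.34 to -0.01, adjusted p = 0.107, limma).

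*Grb10* (gene 14783, chr11:11930499-12037428) encodes an adaptor that binds the activated receptor and restrains its signal, and the gene is imprinted. Its level was 8.97 and 8.12 FPKM in Ctrl and 5.79 and 6.66 FPKM in cKO. The groups did not overlap, and the mean decreased by 27.2%, from 8.54 ± 0.601 FPKM in Ctrl to 6.22 ± 0.615 FPKM in cKO (SD, n = 2 each, adjusted p = 0.0177, limma). The log2 fold change was -0.40 (SE 0.0907), and 8.71% of all genes tested had one as low or lower. The limma call held without cKO replicate 2 (log2 fold change -0.49, adjusted p = 0.0277). It was lost without Ctrl replicate 1 (-0.34, adjusted p = 0.174), Ctrl replicate 2 (-0.47, adjusted p = 0.0761) or cKO replicate 1 (-0.32, adjusted p = 0.0824), and with no filter on low values, where the fold change was the same (adjusted p = 0.0842). Within a library, the ratio of *Grb10* to *Insr* was 0.736 and 0.628 in Ctrl and 0.538 and 0.591 in cKO. The cKO ratios were both lower, though an exact permutation test of 2 against 2 libraries cannot give a p below 0.333 and none is reported for the ratios.

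*Irs1* (gene 16367, chr1:82233105-82291439) encodes a docking protein that carries the receptor's signal to PI3-kinase. It stood at 7.24 and 7.56 FPKM in Ctrl and 5.54 and 5.71 FPKM in cKO. The 2 libraries of a genotype differed by at most 1.04-fold, and the mean decreased by 24.0%, from 7.40 ± 0.226 FPKM in Ctrl to 5.62 ± 0.12 FPKM in cKO (SD, n = 2 each). The log2 fold change of -0.34 (SE 0.0745) had an adjusted p of 0.0156 in limma. Without Ctrl replicate 1, Ctrl replicate 2 or cKO replicate 1 the limma adjusted p was 0.111, 0.125 and 0.0616, without cKO replicate 2 it was 0.0452, and with no filter on low values it was 0.054, while the log2 fold change stayed between -0.39 and -0.31 in all alternatives.

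*Irs2* (gene 384783, chr8:10984681-11008929), the related substrate, measured 3.21 and 2.75 FPKM in Ctrl and 2.74 and 2.81 FPKM in cKO. The groups overlapped, with a log2 fold change of -0.07 (95% interval -0.31 to 0.16, adjusted p = 0.634, limma). The ratio of *Irs2* to *Irs1* was 0.443 and 0.364 in Ctrl and 0.495 and 0.492 in cKO, so *Irs1* was the more abundant of the pair in all 4 libraries. A further substrate gene that rodents express in fat, *Irs3*, was looked at after the values were seen: it had 23.95 and 25.26 FPKM in Ctrl and 28.77 and 26.43 FPKM in cKO (log2 fold change 0.16, adjusted p = 0.128, limma). *Irs3* exceeded *Irs1* in every library, by 3.31 and 3.34 times in Ctrl and by 5.19 and 4.63 times in cKO.

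*Pik3r1* (gene 18708, chr13:101680761-101768217) encodes regulatory subunits of class IA PI3-kinase, a long form and shorter ones from start sites inside the gene, all of which hold the catalytic subunit and bring it to the Irs proteins. Its level was 64.55 and 57.57 FPKM in Ctrl and 19.29 and 31.37 FPKM in cKO. The higher cKO library was still well under the lower Ctrl library, and the Ctrl mean of 61.1 ± 4.94 FPKM gave way to 25.3 ± 8.54 FPKM in cKO (SD, n = 2 each), a reduction of 2.41-fold. The log2 fold change was -1.27 (SE 0.192, 95% interval -1.73 to -0.82, adjusted p = 0.00389, limma), the 97th lowest of the 12658 genes tested, which places it among the lowest 0.766%.

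The 2 cKO libraries differed from each other by 1.63-fold in *Pik3r1*, against 1.15-fold or less for the other 9 genes. From the estimated depth, about 1672 and 2743 reads stood behind the cKO values and 5837 and 5206 behind the Ctrl values, for a counting error near 2.4% in the shallowest library. Leaving out cKO replicate 1 gave a log2 fold change of -0.94 and leaving out cKO replicate 2 gave -1.61, both still called. The call was lost without Ctrl replicate 1 (log2 fold change -1.19, adjusted p = 0.0775, limma) and with no filter on low values (adjusted p = 0.061, limma). Skeletal muscle markers fell with *Pik3r1* between the genotypes. Between the Ctrl libraries the muscle sum and *Pik3r1* were both higher in replicate 1, by 1.49-fold and 1.12-fold. In cKO the muscle sum was small, at 11.9 and 9.34 FPKM, and was higher in replicate 1, where *Pik3r1* was lower. The summed thermogenic adipocyte markers, at 1516 and 1792 FPKM in Ctrl and 4778 and 4038 FPKM in cKO, ran in the reverse order of *Pik3r1*. The sums of mature adipocyte, fibroblast progenitor, endothelial, Schwann cell and erythroid markers ran in the same order as *Pik3r1* over the 4 libraries. Such an order was thus shared by several lists and, with 2 libraries per genotype, singles out no cell type. The part of muscle RNA, of thermogenic adipocytes or of any other cell type in the *Pik3r1* difference was not tested, nor in those of *Irs1* and *Grb10*.

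The table gives 1 value for the 2 *Pik3r1* transcripts it lists, so a change in either could not be read separately. RefSeq holds start sites of *Pik3r1* that lie 75587 bases apart, and the listed transcripts were not matched to them. The 250 bases before each start are shown for the 3 genes called lower, in RefSeq's build GRCm38.p6 and read on the minus strand of each gene 5′ to 3′. Capitals mark TGACG or its reverse complement CGTCA, a half-site of the cAMP response element, the site bound by Creb downstream of adrenergic signals. The first *Pik3r1* window, at chr13:101768218-101768467, has 76.4% G or C and 30 CpG pairs, beside medians of 52.4% and 6 over 32851 such windows. The second, at chr13:101692631-101692880, has 42.4% G or C and 6 CpG pairs and holds 1 match 31 bases before the start.
Pik3r1 outer start: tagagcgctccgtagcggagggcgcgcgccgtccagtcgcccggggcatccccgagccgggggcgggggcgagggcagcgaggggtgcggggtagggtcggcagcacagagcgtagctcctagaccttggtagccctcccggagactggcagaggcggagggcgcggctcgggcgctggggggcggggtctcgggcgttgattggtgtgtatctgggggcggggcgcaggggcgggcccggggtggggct
Pik3r1 inner start: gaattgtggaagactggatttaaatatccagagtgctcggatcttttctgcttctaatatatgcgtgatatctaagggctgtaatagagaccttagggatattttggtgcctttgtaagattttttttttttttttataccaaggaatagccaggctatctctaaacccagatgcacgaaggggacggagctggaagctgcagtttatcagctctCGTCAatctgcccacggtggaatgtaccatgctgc

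The *Irs1* window, at chr1:82291440-82291689, holds 1 match 114 bases before the start. *Grb10* has start sites 9449 bases apart, with no match at chr11:12037421-12037670, where G or C make up 81.2%, and 1 match 156 bases before the start at chr11:12027972-12028221.
Irs1 start: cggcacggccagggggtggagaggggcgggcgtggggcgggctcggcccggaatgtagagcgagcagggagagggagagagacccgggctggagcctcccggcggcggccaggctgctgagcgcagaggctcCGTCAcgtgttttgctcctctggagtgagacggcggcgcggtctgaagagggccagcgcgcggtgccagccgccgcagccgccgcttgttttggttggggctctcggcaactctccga
Grb10 outer start: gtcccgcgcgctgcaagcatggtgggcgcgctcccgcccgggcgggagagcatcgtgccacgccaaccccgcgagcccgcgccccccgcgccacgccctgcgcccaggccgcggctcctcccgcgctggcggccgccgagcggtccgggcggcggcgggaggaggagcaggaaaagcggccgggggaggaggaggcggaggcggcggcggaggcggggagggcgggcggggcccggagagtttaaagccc
Grb10 inner start: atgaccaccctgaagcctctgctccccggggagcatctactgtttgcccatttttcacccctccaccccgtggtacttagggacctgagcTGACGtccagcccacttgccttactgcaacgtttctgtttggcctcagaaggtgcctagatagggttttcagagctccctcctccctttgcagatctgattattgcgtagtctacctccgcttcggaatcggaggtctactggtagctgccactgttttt

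Windows were found for 9 of the 10 genes, 15 windows in all, the exception being *Insr*. TGACG was searched on both strands and occurred in 5 of the 15, against 17.77% of all 32851 windows, the others being a pair of *Akt2* windows. The FoxO motif GTAAACA, searched in the same way, occurred in 1 of the 15, an *Akt1* window with the match 155 bases before the start, against 3.17% of all windows. None of the windows of the 3 genes called lower held GTAAACA. A match describes the letters in the window and is not evidence of a bound site.

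*Pik3ca* (gene 18706, chr3:32397065-32466112) encodes the catalytic alpha subunit that the *Pik3r1* product holds. It measured 7.80 and 8.29 FPKM in Ctrl and 7.47 and 8.08 FPKM in cKO. The groups overlapped and the log2 fold change was -0.04 (95% interval -0.23 to 0.14, adjusted p = 0.711, limma). The ratio of *Pik3r1* to *Pik3ca* within a library was 8.28 and 6.94 in Ctrl and 2.58 and 3.88 in cKO, with no overlap.

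*Akt1* (gene 11651, chr12:112653821-112674884) encodes the kinase isoform found in most tissues. It stood at 54.39 and 49.92 FPKM in Ctrl and 52.46 and 50.15 FPKM in cKO, overlapping groups with a log2 fold change of -0.02 (95% interval -0.17 to 0.13, adjusted p = 0.83, limma). *Akt2* (gene 11652, chr7:27591552-27640826) encodes the isoform most tied to insulin-driven glucose uptake. It stood at 144.83 and 141.11 FPKM in Ctrl and 147.18 and 136.79 FPKM in cKO, with a log2 fold change of -0.01 (95% interval -0.16 to 0.13, adjusted p = 0.916, limma). The ratio of *Akt2* to *Akt1* was 2.66 and 2.83 in Ctrl and 2.81 and 2.73 in cKO, values that overlapped.

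**Figure D4:**
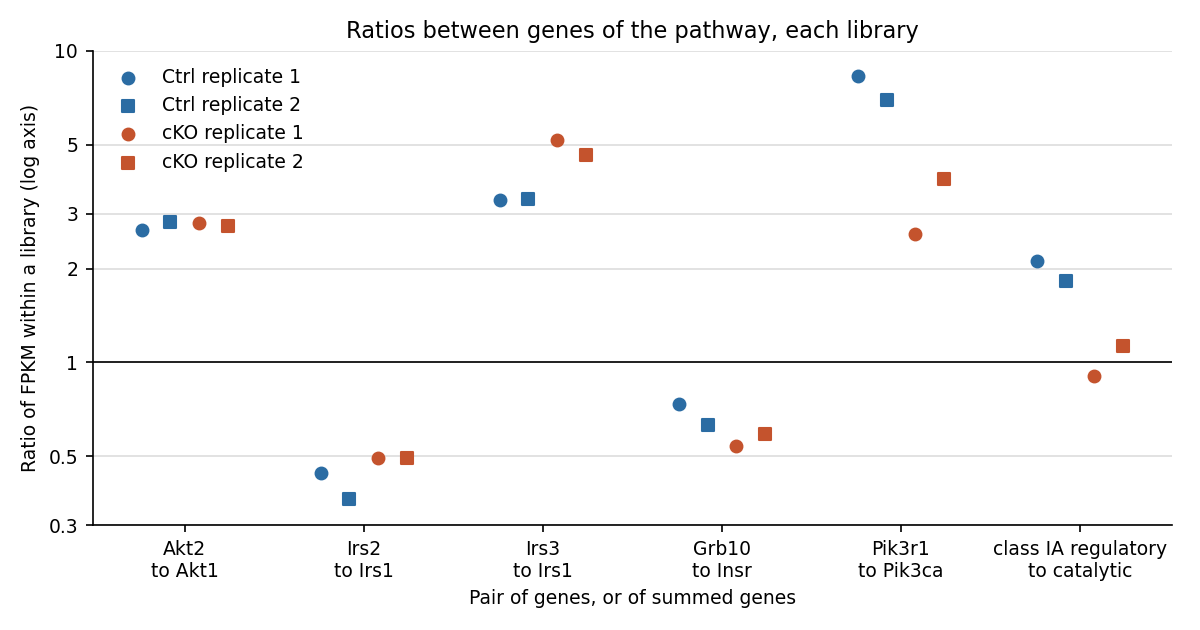
Ratio of FPKM within each library (log axis) for pairs of insulin signalling genes, 2 Ctrl and 2 cKO libraries, with class IA subunits summed in the last column. *Pik3r1* to *Pik3ca* separates the genotypes most, at 8.28 and 6.94 in Ctrl against 2.58 and 3.88 in cKO, while *Akt2* to *Akt1* lies between 2.66 and 2.83 in all 4 libraries.

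*Foxo1* (gene 56458, chr3:52268337-52350109) encodes a transcription factor that Akt keeps out of the nucleus. It measured 18.53 and 18.65 FPKM in Ctrl and 17.03 and 19.12 FPKM in cKO. The cKO libraries lay on either side of the Ctrl libraries, with a log2 fold change of -0.04 (95% interval -0.21 to 0.13, adjusted p = 0.717, limma). *Tbc1d4* (gene 210789, chr14:101442360-101609281) encodes the Rab GTPase-activating protein that holds Glut4 vesicles inside the cell until Akt phosphorylates it. It measured 12.69 and 12.65 FPKM in Ctrl and 11.88 and 13.36 FPKM in cKO, again with the cKO libraries on either side, and a log2 fold change of -0.01 (95% interval -0.18 to 0.17, adjusted p = 0.953, limma). The intervals of *Pik3ca*, *Akt1*, *Akt2*, *Foxo1* and *Tbc1d4* run at their widest from -0.23 to 0.17 on the log2 scale, and the sign of each, as that of *Irs2*, turned in at least 1 alternative.

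Beyond these genes, 130 genes of the pathway in 7 lists were followed, of which 121 passed the filter on low values. In the same limma fit 17 were called higher and 16 lower in cKO, together 27.3% beside 25.8% of all genes, and the median log2 fold change was 0.01. Fewer were called when 1 library was left out, 4 to 12 higher and 6 to 15 lower, the lowest of both without Ctrl replicate 1. Without Ctrl replicate 2 the counts were 8 and 10, and with no filter on low values 11 were higher.

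The receptor-proximal list holds further adaptors, kinases and phosphatases at the receptor. Of 22 tested, 2 were called higher and 1 lower, 13.6% beside 25.8% of all genes. The list's median log2 fold change was 0.10. *Sh2b1* and *Sh2b2*, adaptors that bind the activated receptor, rose from 22.7 ± 0.431 to 27.7 ± 1.29 FPKM and from 39.4 ± 1.34 to 47.3 ± 4.48 FPKM (SD, n = 2, adjusted p = 0.0171 and 0.0464, limma). *Gab1*, a docking protein that also binds the PI3-kinase regulatory subunit, fell from 5.99 and 5.86 FPKM to 3.51 and 3.99 FPKM (log2 fold change -0.55, adjusted p = 0.00505, limma).

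The phosphoinositide list holds other PI3-kinase subunits and enzymes of their lipids. Of 17 tested, 4 were called higher and 3 lower, 41.2% beside 25.8% of all genes. Those that fell included *Pik3cb*, a catalytic subunit, from 19.9 ± 0.148 to 15.2 ± 0.728 FPKM, and *Pik3r2*, the regulatory subunit related to *Pik3r1*, from 17.8 ± 1.61 to 13.9 ± 1.03 FPKM (SD, n = 2, adjusted p = 0.00697 and 0.0278, limma). The 4 that rose were *Pik3ap1*, a B cell PI3-kinase adaptor, from 7.89 ± 0.184 to 12.4 ± 0.0283 FPKM, *Pik3r5*, a subunit of the class IB enzyme of blood cells, *Inpp5d*, a lipid phosphatase of blood cells, and *Pik3cd*, the leukocyte catalytic subunit, which falls outside the naming rule and was added after its value was seen. Their log2 fold changes were 0.59, 0.49, 0.42 and 0.37 (adjusted p = 0.00136, 0.00477, 0.00769 and 0.0192, limma). B cell markers summed to 234 and 265 FPKM in Ctrl and 361 and 409 in cKO, and T cell markers to 81.7 and 85.7 against 113 and 150, and their part in these 4 genes was not tested.

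**Figure D5:**
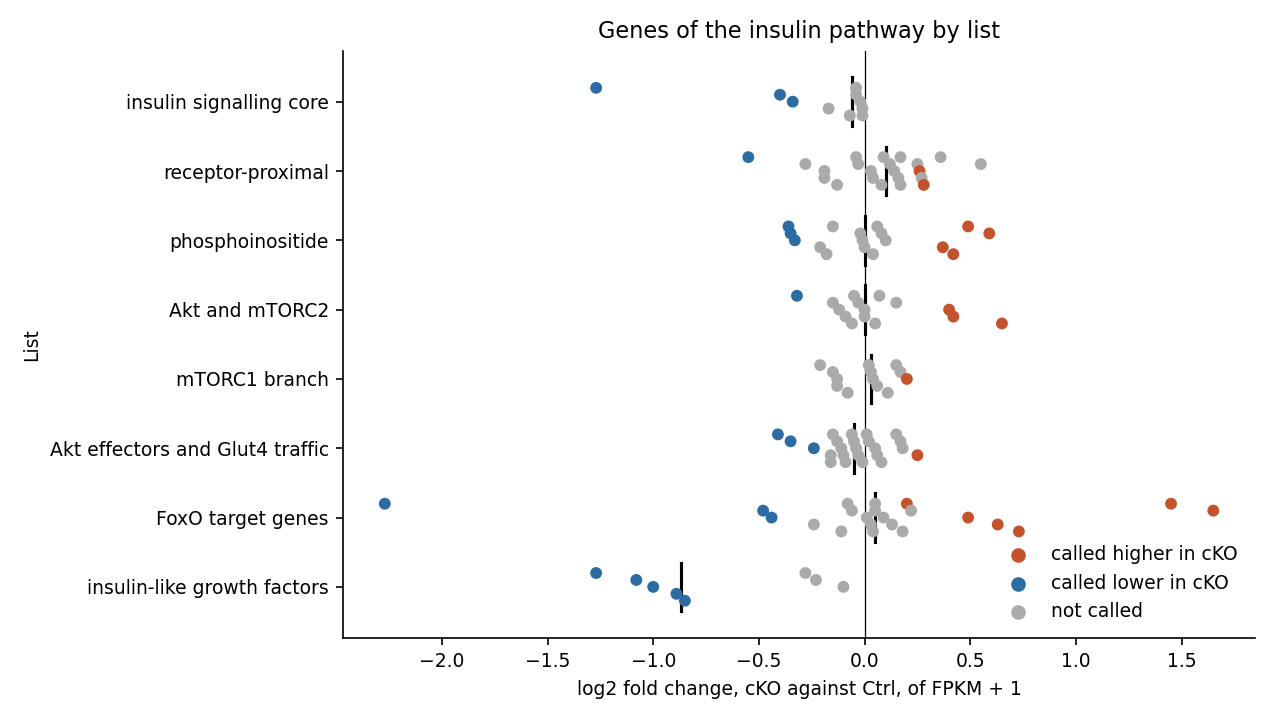
Log2 fold change of FPKM + 1 in cKO against Ctrl (x axis) for the 10 core genes and the genes of 7 further lists that passed the filter on low values, 1 point per gene, coloured by the limma call, with a black bar at each list's median. The medians lie between -0.06 and 0.10 except for the insulin-like growth factor list at -0.87.

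Among Akt partners and the mTORC2 complex, which phosphorylates Akt, 3 of 15 were called higher and 1 lower, 26.7% beside 25.8% of all genes. *Mtor*, the kinase of both mTOR complexes, rose from 11.33 and 13.10 FPKM to 20.33 and 18.98 FPKM (log2 fold change 0.65, adjusted p = 0.00209, limma). *Deptor*, an mTOR inhibitor, and *Trib3*, a pseudokinase that binds Akt, had log2 fold changes of 0.42 and 0.40, and *Prr5*, an mTORC2 subunit, of -0.32 (adjusted p = 0.00662, 0.0338 and 0.0335, limma). In the mTORC1 branch 1 of 13 was called higher and 0 lower, 7.7% beside 25.8% of all genes. The gene called was *Tsc2*, a brake on mTORC1 that Akt phosphorylates, at a log2 fold change of 0.20 (adjusted p = 0.049, limma). At an unadjusted p under 0.05, 1 gene was lower.

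Of 24 Akt effectors and genes of Glut4 traffic, 1 was called higher and 3 lower, 16.7% beside 25.8% of all genes. The list's median log2 fold change was -0.05. *Sort1*, the sortilin that helps form Glut4 vesicles, fell from 61.19 and 60.81 FPKM to 47.12 and 47.85 FPKM (log2 fold change -0.35, adjusted p = 0.00381, limma). *Ralgapa2*, an Akt-regulated GTPase-activating protein, and *Snap23*, a fusion protein of the cell membrane, had log2 fold changes of -0.41 and -0.24, and *Gsk3a*, a kinase that Akt inhibits, of 0.25 (adjusted p = 0.00413, 0.0368 and 0.0166, limma). *Slc2a4*, the Glut4 gene itself, was not called at 176 ± 3.38 FPKM in Ctrl and 158 ± 7.07 FPKM in cKO (SD, n = 2, adjusted p = 0.0982, limma), and was added after its value was seen.

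Of 22 genes known as FoxO targets, 6 were called higher and 3 lower, 40.9% beside 25.8% of all genes. The median of the list was 0.05 on the log2 scale. *Pdk4*, a kinase that shuts off pyruvate oxidation, rose from 80.20 and 108.06 FPKM to 309.98 and 280.30 FPKM (log2 fold change 1.65, adjusted p = 0.000442, limma). *Bcl6*, a transcriptional repressor, rose from 10.95 and 13.69 FPKM to 39.58 and 31.08 FPKM (log2 fold change 1.45, adjusted p = 0.000724, limma). The falls were in *Trim63* and *Fbxo32*, ubiquitin ligases of muscle, and in *Cited2*, a transcriptional coregulator. *Trim63* went from 4.59 and 3.31 FPKM to 0.01 and 0.03 FPKM, and *Fbxo32* from 3.08 ± 0.495 to 1.91 ± 0.156 FPKM (SD, n = 2, adjusted p = 0.000265 and 0.0248, limma), beside the fall of the muscle markers, whose part was not tested.

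The insulin-like growth factors and their binding proteins had a median log2 fold change of -0.87. Of 8 tested in limma, 5 were called lower and 0 higher. At an unadjusted p under 0.05, 7 were lower and 0 higher, beside 2551 and 2322 of the 12658 genes tested. The share called lower was 62.5%, beside 13.8% of all genes called lower and 25.8% called in either direction. *Igfbp2*, below the filter on low values and not tested, went the other way, at 0.37 and 0.25 FPKM in Ctrl and 0.90 and 0.70 FPKM in cKO. *Igfals*, the subunit that stabilises circulating growth factor complexes, fell from 24.2 ± 3.65 to 9.38 ± 0.396 FPKM, and the binding protein genes *Igfbp6* and *Igfbp5* from 133 ± 22.4 to 61.9 ± 0.834 FPKM and from 105 ± 13.5 to 51.5 ± 0.269 FPKM (SD, n = 2, adjusted p = 0.000446, 0.000848 and 0.000612, limma). The other called genes, named after their values were seen, were *Igf1*, at 36.38 and 33.16 FPKM in Ctrl and 16.63 and 19.97 FPKM in cKO, and *Igfbp4*, at 382 ± 39.4 and 211 ± 2.08 FPKM (SD, n = 2, adjusted p = 0.00111 and 0.00079, limma). Fibroblast progenitor markers summed to 1355 and 1158 FPKM in Ctrl and 717 and 741 in cKO, and their part in these falls was not tested.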

How the data were processed

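Poly-A RNA of ingWAT from 2 Ctrl and 2 cKO libraries was sequenced as single-end reads. The authors deposited 1 table of FPKM values per gene and library. Transcript lengths for the read estimates were taken from GENCODE, and those of short RNA genes from RefSeq. The submitters' processing notes name HISAT2 2.0.4, RSEM 1.2.12 and the build mm10 without saying which step each served. Read counts were not used. Sequencing depth was derived from how the low FPKM were spaced in 312 short RNA genes, as 17400000 to 18150000 reads per library. Between 140 and 147 values were used per library, and 83.6% to 88.7% of them were whole within 0.1 reads. The depth was chosen to make this share largest, so the share is no separate check of it. The table held 24 symbols that were replaced by gene IDs.

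Differences were fitted with limma 3.58.1 in R 4.3.3 on log2(FPKM + 1), with a variance trend, over the 12658 genes that averaged 1 FPKM or more. Tests were two-sided, Benjamini-Hochberg adjusted over all genes tested, and called at an adjusted p under 0.05. The script was tested on simulated data. Alternatives changed the pseudocount, the filter, the scaling, the variance trend, the replicate block and the libraries.

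The genes and lists were chosen with earlier results of these data known. Beside the 10 core genes, up to 3 called genes with the largest rise and 3 with the largest fall in each list were named where the genotypes did not overlap. Promoter windows came from RefSeq, GRCm38.p6. Protein sequences were not analysed here, and a few genes that the rule names are not reported here. Replicate numbers were given by the labels and were not used to pair libraries in the main fit.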

Additional observations from a re-analysis of the deposited data

How the results depend on the processing

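The log2 fold changes of *Pik3r1*, *Grb10*, *Irs1* and *Insr* stayed below 0 in all 13 alternatives tried for each. The 3 core genes called lower became 0 with no filter on low values and 0 to 3 when 1 library was left out. With no filter, 11 pathway genes were higher and 1762 genes were called in all, against 17 and 3269. Leaving out 1 library gave 4 to 12 pathway genes higher, 6 to 15 lower and 787 to 2340 genes in all. Without a library, the remaining one of its genotype is assumed to vary like the other group.

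The direction of the small differences was not stable. *Tbc1d4* was at 0.002 with median-of-ratios scaling and 0.014 with quantile normalization. With 1 library left out, log2 fold changes ranged from -0.16 to 0.01 for *Irs2*, -0.083 to 0.038 for *Akt1*, -0.063 to 0.042 for *Akt2*, -0.094 to 0.006 for *Pik3ca*, -0.12 to 0.039 for *Foxo1* and -0.086 to 0.071 for *Tbc1d4*. The cause of these changes was not tested. *Irs2* has no value at a mean FPKM of at least 5.

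The replicate block left 3 core genes lower and 0 higher, with 16 pathway genes higher, 16 lower and 3383 genes called in all. Deviations from the genotype means correlated across genes at 0.015 for libraries with the same number. With 2 libraries per genotype the crossed pairing must give the same value with its sign turned, -0.015. No label ties a number to a litter, batch or day, so the libraries were not treated as paired.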

Other observations

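The class IA PI3-kinase subunits were summed after the single values were seen, so these sums carry no test. The regulatory genes *Pik3r1*, *Pik3r2* and *Pik3r3* summed to 87.1 and 78.1 FPKM in the Ctrl libraries and to 35.5 and 49.3 FPKM in the cKO libraries, and the catalytic genes *Pik3ca*, *Pik3cb* and *Pik3cd* to 41.2 and 42.8 against 39.3 and 43.8 FPKM. The regulatory transcripts thus outnumbered the catalytic ones 2.11 and 1.82 times per length in Ctrl, and stood at 0.903 and 1.13 times their level in cKO. *Pik3r1* made up 74.1% and 73.8% of the regulatory sum in Ctrl and 54.4% and 63.7% in cKO, where *Pik3r2* fell as well. Within the catalytic sum, *Pik3cb* fell and *Pik3cd* rose.

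The shares within the substrate family were taken in the same way. *Irs3* made up 69.6% and 71.0% of the summed *Irs1*, *Irs2* and *Irs3* transcripts in Ctrl and 77.7% and 75.6% in cKO, and *Irs1* 21.0% and 21.3% against 15.0% and 16.3%.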
